A study of Mus musculus with 9 samples.

Results

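The genes described here are 41 mouse genes of the complement and coagulation systems, chosen as a list of symbols and matched by Ensembl identifier to the 37816 genes of a count table from mouse cerebellum. All 41 were present. They were sorted by textbook knowledge of where each is made, which was not measured here: 14 are made mainly in liver, 15 in liver and in other tissues, brain among them, and 12 in cells of the brain, its vessels or its immune cells. The study asked how the cerebellum of a mouse model of spinocerebellar ataxia type 3 (SCA3) differs from that of a control line, and how insulin-like growth factor 1 (IGF-1) alters it. All 9 mice had a C57BL/6 background and human ATXN3 on a yeast artificial chromosome. In the 15Q group (control, n = 3) its CAG tract held 15 repeats, and in the 84Q group (n = 3) and the 84Q+IGF-1 group (n = 3) it held 84. The 84Q+IGF-1 mice received weekly intraperitoneal IGF-1 at 50 mg/kg between 9 and 18 months of age, when the tissue of every mouse was taken. The other mice are labelled untreated, while the protocol gives injections of PBS. The 15Q line was donated by another laboratory and the 84Q line was bought from a supplier, so repeat length and line of origin cannot be told apart.

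Complement is a cascade of plasma proteases in which C1r and C1s, or factor D with factor B, lead to the cleavage of C3, followed by assembly of C5 to C9 into a pore. Coagulation is a second cascade in which tissue factor, or the contact factors, lead to thrombin, which cuts the 3 fibrinogen chains into fibrin, while antithrombin, protein C and plasmin limit the clot. Hepatocytes secrete most of these proteins, whereas microglia, astrocytes, neurons and endothelium of the brain make a smaller set, such as C4, tissue factor and tissue plasminogen activator.

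Each library held between 17482654 (84Q replicate 3) and 58269196 (15Q replicate 3) counts, and 3 counts were taken as the floor of detection, or between 0.0515 and 0.172 CPM, which are counts relative to the total of a library. The tissue label was met by the neuronal markers: Gabra6 (400 CPM in 15Q), Pcp2 (128 CPM) and Cbln1 (762 CPM) were abundant, and the sum of 10 such genes lay between 8670 and 9430 CPM in every library. Markers of choroid plexus, the epithelium that secretes cerebrospinal fluid, set 3 libraries apart, with summed levels of 524 and 513 CPM in 15Q replicates 1 and 3 and 1070 CPM in 84Q replicate 2, against 29.4 to 71.3 CPM in the other 6. Counts are also given without these 3 libraries where they moved by more than 1.5 times. The RNA came from whole tissue, so fewer cells of a type and less RNA per cell cannot be told apart.

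Of the 41 genes, 29 had enough counts to be tested and 12 (C6, C7, Cfb, Cfi, F7, F10, F11, F12, Fga, Proc, Kng1 and Klkb1) did not. Genes with an adjusted p under 0.1 in the edgeR quasi-likelihood test and a change of 1.5-fold or more are called lower or higher here. In 84Q against 15Q, 9 genes were called lower (C3, Cfd, F2, Fgb, Fgg, Plau, Plg, Serpinc1 and Serpind1), while 1.90% of all 19353 genes tested were called lower. In 84Q+IGF-1 against 15Q, 9 were again called lower, with C1ra in place of Plau, against 2.06% of all genes. Both comparisons used the same 3 control libraries, and 8 genes were called in both. With the 6 expanded-repeat libraries as one group, 11 genes were called lower, namely these 8 with C1ra, F13a1 and Plau, where 3.16% of all genes were, and without 15Q replicate 3 the number was 7. None was called higher in any comparison, in edgeR or in DESeq2. Across all genes 0.238%, 0.186% and 0.315% were called higher in these 3 comparisons, and 1 gene of the list, Cfp, was higher at an unadjusted p under 0.05 in each. In either direction, 3764, 3429 and 4389 of all 19353 genes tested had such a p in edgeR. The median log2 fold change of the 29 tested genes was -0.40 in 84Q and -0.64 in 84Q+IGF-1, beside 0.00 and -0.01 over all genes tested. Cfd, F2, Fgb and Fgg exceeded the minimum of the filter on low counts, 0.371 CPM in 3 libraries, in the 15Q libraries only, and Serpinc1 and Plg in the 15Q libraries and 1 other, so that these 6 could enter the test only by being high in 15Q, and their share among the genes called is no result. Over the other 23 tested genes the medians were -0.20 and -0.32, so the medians of the 29 are a description and are not to be read against those of all genes.

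**Figure D1:**
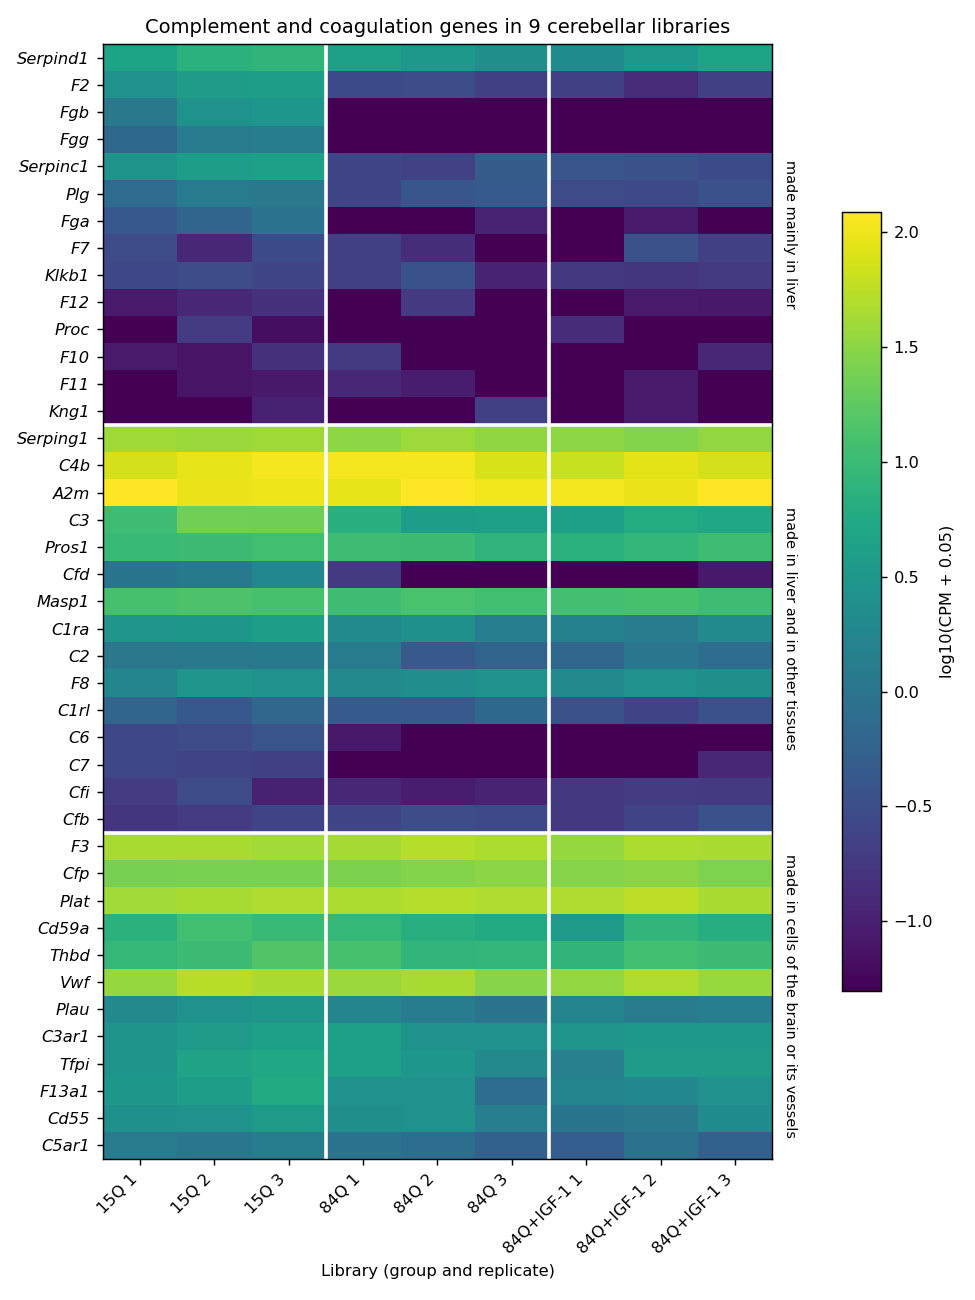
Level of each of the 41 genes (rows, grouped by where the gene is mainly made) in each of the 9 libraries (columns), as log10(CPM + 0.05). Fgb and Fgg stand at 0 counts in all 6 libraries of 84Q and 84Q+IGF-1, while the 6 genes with the highest mean TPM (F3, Cfp, C4b, Serping1, A2m and Plat) keep one colour across the row.

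Fibrinogen, the soluble precursor of the clot, was detected in the control cerebella and at no more than 1 count in any other library. Its 3 chains are encoded side by side on chromosome 3 (GRCm38). Fgb, the beta chain (chr3:83040141-83049863), had 29, 106 and 172 counts in the 15Q libraries and 0 counts in each of the other 6. Fgg, the gamma chain (chr3:83007724-83015049), had 17, 49 and 75 counts in 15Q and 0 in each of the other 6. Neither gene's groups overlapped, and 15Q replicate 1 was the lowest of the 3 controls for both. That library, with 29 counts of Fgb, held fewer counts in all (26925001) than 84Q replicate 1 (28843999) and 84Q+IGF-1 replicate 3 (29089855), which held none. Taken against the floor of each library, the fall of Fgb was at least 16.4-fold in 84Q and 19.5-fold with IGF-1, and that of Fgg at least 7.70-fold and 9.16-fold. Both passed the test (adjusted p = 0.00506 and 0.00345 for Fgb, 0.00745 and 0.00488 for Fgg, edgeR). They could enter it only by being high in 15Q, so passing it is no independent support. Fga, the alpha chain (chr3:83026076-83033627), stood exactly at the minimum of the filter in 15Q replicate 1 and was not tested. Its counts were 10, 24 and 54 in 15Q, 0, 0 and 1 in 84Q, and 0, 1 and 0 in 84Q+IGF-1. The 15Q libraries were again above all others, by a ratio of 48.5 over 84Q (exact 95% interval 8.48 to 1940) and of 55.8 over 84Q+IGF-1 (9.75 to 2230), intervals that cover counting error only. Even in 15Q the chains were rare transcripts, with mean levels of 2.36 ± 1.08 (SD, n = 3) TPM (a level per transcript length) for Fgb, 2.02 ± 0.706 for Fgg and 0.851 ± 0.384 for Fga.

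Prothrombin, the zymogen of the protease that cuts fibrinogen, followed the same division. F2 measured 2.60, 3.67 and 3.77 CPM in 15Q, 0.241, 0.263 and 0.171 CPM in 84Q, and 0.171, 0.0752 and 0.171 CPM in 84Q+IGF-1. The highest of the 6 expanded-repeat libraries lay far under the lowest control. Its log2 fold change was -3.85 (SE 0.30, adjusted p = 5.31e-05) in 84Q and -4.56 (SE 0.31, adjusted p = 2.33e-05) in 84Q+IGF-1. F2 too could enter the test only by being high in 15Q.

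The stretch upstream of a gene's start is shown for 2 of the genes called in both comparisons, because these held letters bound by liver-enriched factors. Of the 8 such genes, 7 had an upstream sequence in the RefSeq table of GRCm38.p6 (Plg had none), and 250 bases before the start were searched on both strands for GTTAAT, a half-site of HNF1, and TTGCNNAA, a form of the C/EBP site. The HNF1 letters were in 1 of the 7 (Fgb) and in 6.43% of 32851 promoters, and the C/EBP letters in 2 of the 7 (C3 and Fgb) and in 9.56% of promoters. The other 5, Serpinc1, F2, Fgg, Cfd and Serpind1, held neither in this window. Capitals mark the matches, which in Fgb begin 80 bases (TTGCTCAA, C/EBP) and 29 bases (ATTAAC, the reverse complement of GTTAAT) before the start, and in C3 45 bases before it (TTGCGAAA). The 2 sequences, chr3:83049864-83050113 for Fgb and chr17:57228137-57228386 for C3, are on the minus strand and written 5′ to 3′. A match describes letters and not a bound site.
Fgb: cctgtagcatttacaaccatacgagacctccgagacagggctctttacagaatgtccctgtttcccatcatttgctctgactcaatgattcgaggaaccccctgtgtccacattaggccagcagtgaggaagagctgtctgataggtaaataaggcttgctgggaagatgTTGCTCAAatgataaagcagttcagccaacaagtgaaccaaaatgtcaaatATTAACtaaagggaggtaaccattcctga
C3: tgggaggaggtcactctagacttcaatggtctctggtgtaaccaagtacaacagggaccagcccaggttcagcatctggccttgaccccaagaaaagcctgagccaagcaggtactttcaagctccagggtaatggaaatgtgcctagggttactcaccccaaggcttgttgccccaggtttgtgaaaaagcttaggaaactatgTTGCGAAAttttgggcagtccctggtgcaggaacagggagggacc

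Among the anticoagulant serpins, Serpinc1, which encodes antithrombin, the main plasma inhibitor of thrombin, was far lower with the expanded repeat. It measured 2.78, 3.79 and 4.18 CPM in 15Q, 0.207, 0.176 and 0.456 CPM in 84Q, and 0.343, 0.301 and 0.24 CPM in 84Q+IGF-1. The groups did not overlap, and the log2 fold changes were -3.76 (SE 0.32, adjusted p = 9.21e-05) and -3.61 (SE 0.30, adjusted p = 7.52e-05). Of its exonic bases, 34.4% are shared with Zbtb37 on the opposite strand and the strand setting of the counting is not stated, so the low counts that remained in 84Q cannot be told apart from reads of that gene. Serpind1, heparin cofactor II, a second thrombin inhibitor, was the most abundant of the liver genes at 12.5 ± 3.64 TPM in 15Q. Its level was 4.60, 7.34 and 8.28 CPM in 15Q, 4.24, 3.16 and 2.39 CPM in 84Q, and 2.14, 3.16 and 4.52 CPM in 84Q+IGF-1. Here 15Q replicate 1 stood just above the highest libraries of the other groups, and the change was -1.04 in both (SE 0.29 and 0.28, adjusted p = 0.0889 and 0.0942). The call in 84Q was lost under 9 alternatives and that in 84Q+IGF-1 under 8. Both were lost at an adjusted p under 0.05, with the replicate block, with Xist as a covariate, without the 3 choroid plexus libraries and without 15Q replicate 2 or 3, that in 84Q also without 84Q replicate 2 or 3 or 84Q+IGF-1 replicate 2, and that in 84Q+IGF-1 also without its own replicate 1 or 2. Plg, the precursor of plasmin, which dissolves fibrin, measured 0.705, 1.24 and 1.06 CPM in 15Q, 0.207, 0.351 and 0.399 CPM in 84Q, and 0.257, 0.226 and 0.308 CPM in 84Q+IGF-1. Each control was above each other library, with log2 fold changes of -1.71 (SE 0.35, adjusted p = 0.0325) and -1.92 (SE 0.35, adjusted p = 0.0147). Serpinc1 and Plg, like F2, could enter the test only by being high in 15Q. The call for Plg was lost in both comparisons without the 3 choroid plexus libraries and in 84Q also without 15Q replicate 2 or 3, and 11.3% of its exonic bases are shared with Slc22a3 on the opposite strand.

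**Figure D2:**
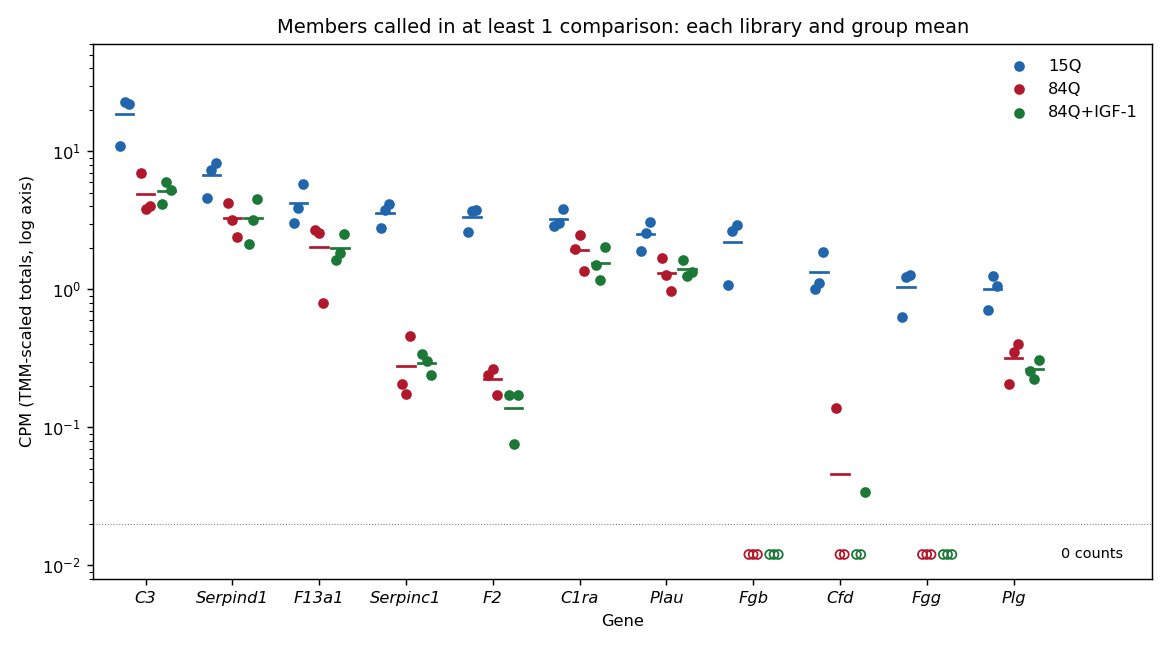
CPM on a log axis of the 11 genes called in at least 1 comparison, with 1 point per library, a bar at each group mean above the dotted line and open points below it for libraries with 0 counts. For all 11 the 3 points of 15Q lie above the other 6, with a wide gap for Fgb, Fgg, F2, Serpinc1 and Cfd and a narrow one for Serpind1, F13a1, C1ra and Plau. The 11 were picked as called, which favours this order, and 6.34% of all genes tested had it. The genes with a wide gap, and Plg, passed the filter only through 15Q.

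In the complement cascade, C3, the component on which all routes converge, was the most abundant of the genes called in the control group, at 14.7 ± 5.39 TPM in 15Q. It measured 10.9, 22.9 and 22.2 CPM in 15Q, 6.93, 3.82 and 3.99 CPM in 84Q, and 4.16, 5.98 and 5.24 CPM in 84Q+IGF-1. The lowest control was still above the highest of the 6, and C3 was lower by a log2 fold change of -1.91 (SE 0.29, adjusted p = 0.00571) in 84Q and of -1.87 (SE 0.29, adjusted p = 0.00492) in 84Q+IGF-1. Cfd, factor D or adipsin, is the protease that starts the alternative pathway. It is made chiefly by fat cells and was sorted here with the genes made in liver and in other tissues. Cfd had 27, 45 and 110 counts in 15Q, 4, 0 and 0 in 84Q, and 0, 0 and 1 in 84Q+IGF-1, and could enter the test only by being high in 15Q. Only 84Q replicate 1 was above the floor among the 6, and the log2 fold change in 84Q was -4.49 (SE 0.66, adjusted p = 0.00468). Since that library held all 4 counts of its group, the fitted value was -8.39 without it, which with 0 counts left is no bound, and the call in 84Q was lost without the 3 choroid plexus libraries. In 84Q+IGF-1 the 15Q counts exceeded its single count by a ratio of 115 (exact 95% interval 20.4 to 4580, adjusted p = 0.00149). C1ra, the protease C1r of the classical pathway, measured 2.86, 3.05 and 3.81 CPM in 15Q, 1.96, 2.46 and 1.37 CPM in 84Q, and 1.5, 1.17 and 2.02 CPM in 84Q+IGF-1. Its groups did not overlap either, but C1ra was called in 84Q+IGF-1 only (log2 fold change -1.05, SE 0.25, adjusted p = 0.0542) and not in 84Q (-0.74, SE 0.24, adjusted p = 0.135). The call was lost under 7 alternatives, namely an adjusted p under 0.05, the replicate block, and leaving out the 3 choroid plexus libraries, 15Q replicate 2 or 3, or 84Q+IGF-1 replicate 1 or 2, and reads of C1ra and its near copy C1rb may be split between them.

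Of the pore-forming components, C6 and C7 were too rare to be tested. C6 had 6, 10 and 19 counts in 15Q, 1, 0 and 0 in 84Q, and none with IGF-1, which put 15Q higher by a ratio of 19.3 over 84Q (exact 95% interval 3.24 to 783) and left C6 at least 2.33-fold lower with IGF-1. C7 had 6, 8 and 10 counts in the controls, none in 84Q and 0, 0 and 2 with IGF-1, so it was at least 1.46-fold lower in 84Q, while 15Q exceeded 84Q+IGF-1 by a ratio of 7.61 (1.89 to 66.4). The control libraries were above all others for both genes. In a fit without the filter on low counts, Fga and C6 were called lower in both comparisons and C7 in 84Q.

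The genes with the highest mean TPM over the 9 libraries were called in no comparison, and none of these 6 genes is made mainly in liver. F3, tissue factor, which starts the extrinsic pathway and is made by astrocytes, led at 70.1 TPM and measured 43.6, 44.8 and 41.6 CPM in 15Q, 42.7, 51.3 and 47.4 CPM in 84Q, and 35.3, 47.2 and 45.9 CPM in 84Q+IGF-1. Cfp, properdin, the stabilizer of the alternative pathway convertase (63.4 TPM), measured 24.3, 25.5 and 25.1 CPM in 15Q, 26.3, 28.7 and 31.7 CPM in 84Q, and 29.1, 31.1 and 26.8 CPM in 84Q+IGF-1. The groups overlapped for F3, whereas each of the 6 expanded-repeat libraries had more Cfp than each control, by log2 fold changes of 0.21 and 0.22 (SE 0.09, adjusted p = 0.216 and 0.222) that did not pass the test. C4b, component C4 of the classical pathway (61.5 TPM), measured 73.3, 90.0 and 109 CPM in 15Q, 109, 109 and 75.1 CPM in 84Q, and 62.8, 87.5 and 73.9 CPM in 84Q+IGF-1. Its groups overlapped, and its near copy C4a may take part of its reads. Serping1, the C1 inhibitor (60.9 TPM), measured 40.1, 38.1 and 40.7 CPM in 15Q, 32.2, 39.3 and 33.3 CPM in 84Q, and 32.5, 28.6 and 34.1 CPM in 84Q+IGF-1. All controls lay above the 84Q+IGF-1 libraries, with a log2 fold change of -0.32 (SE 0.09, adjusted p = 0.104) that was not called. A2m, the broad protease inhibitor alpha-2-macroglobulin (60.6 TPM), measured 122, 97.9 and 98.7 CPM in 15Q, 91.6, 122 and 103 CPM in 84Q, and 109, 97.9 and 119 CPM in 84Q+IGF-1. Plat, tissue plasminogen activator, a protease of neurons and endothelium (30.6 TPM), measured 41.0, 44.6 and 48.5 CPM in 15Q, 47.0, 51.6 and 48.8 CPM in 84Q, and 47.9, 56.9 and 44.7 CPM in 84Q+IGF-1. Both overlapped between all groups, and the log2 fold changes of A2m, -0.01 and 0.03, had standard errors of 0.11.

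**Figure D3:**
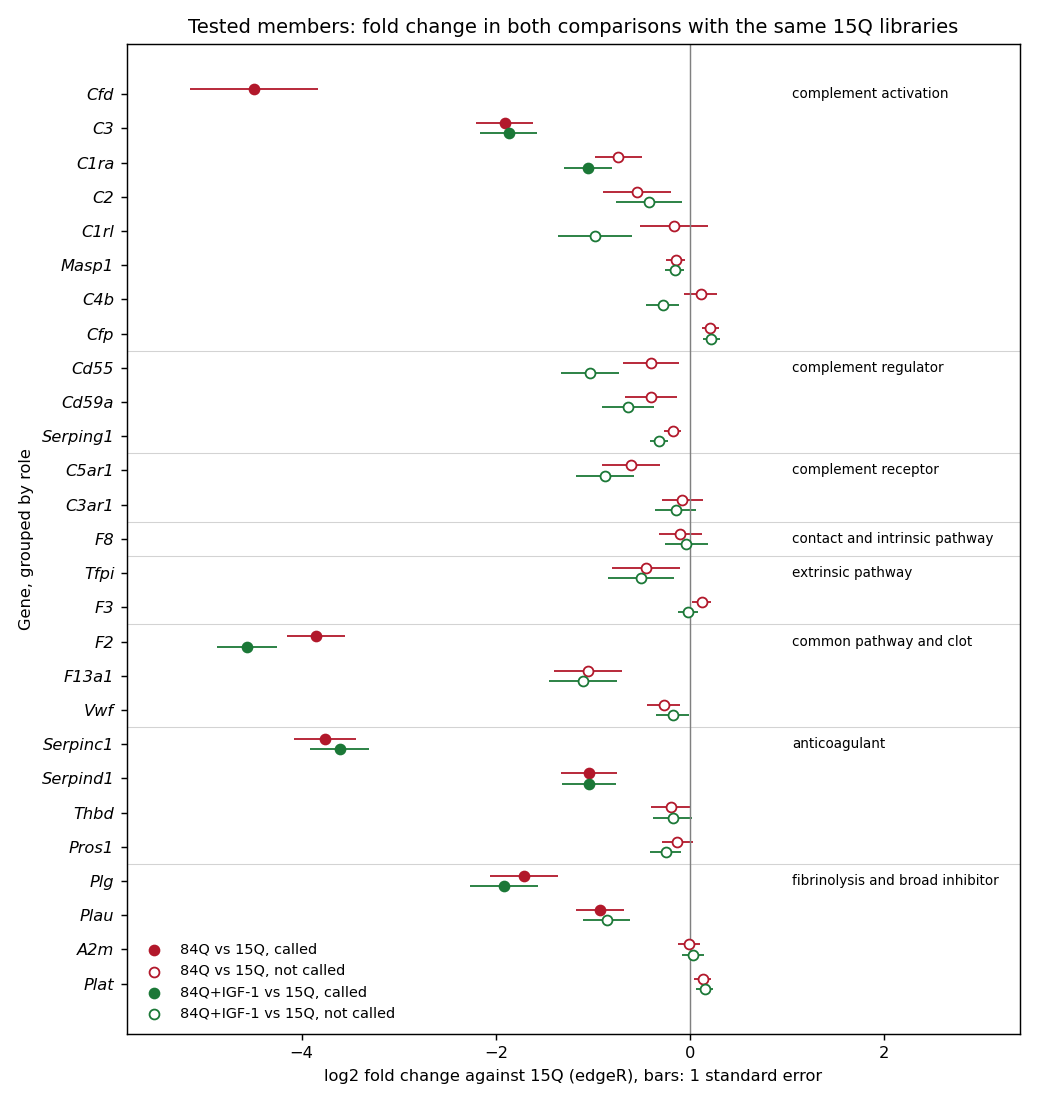
Log2 fold change against 15Q (edgeR, bars 1 standard error) of the tested genes, ordered by role, in 84Q (red) and 84Q+IGF-1 (green), both set against the same 3 libraries, with filled points for genes called. Fgb, Fgg and, in 84Q+IGF-1, Cfd are left out because their groups held 0 or 1 count. The 18 genes called in no comparison lie between -0.61 and 0.21 in 84Q and between -1.03 and 0.22 in 84Q+IGF-1.

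Among genes of endothelium, Vwf, von Willebrand factor, which tethers platelets, changed by -0.27 (SE 0.17) and -0.18 (SE 0.17) on the log2 scale, Thbd, thrombomodulin, the thrombin receptor that turns on protein C, by -0.20 and -0.18 (SE 0.20 both), and Tfpi, the inhibitor of tissue factor, by -0.45 (SE 0.35) and -0.51 (SE 0.34). None of the 3 was called. The anaphylatoxin receptors C3ar1 and C5ar1, carried by microglia, were not called either, but all 3 controls were above the other 6 for C5ar1 (log2 fold change -0.61, SE 0.30, adjusted p = 0.295, and -0.88, SE 0.30, adjusted p = 0.167). Cd55 and Cd59a, membrane regulators that protect host cells from complement, had log2 fold changes of -0.40 in 84Q (SE 0.29 and 0.27) and of -1.03 (SE 0.30, adjusted p = 0.118) and -0.64 (SE 0.27, adjusted p = 0.244) in 84Q+IGF-1. C2, C1rl, Masp1, F8 and Pros1, a cofactor of protein C, complete the 18 tested genes that were called in no comparison. Under the alternatives run, Cd55 was called in 84Q+IGF-1 against 15Q in 5, and C5ar1 and Cd59a in 1 each. A further pair of genes, both made outside liver, was called. Plau, urokinase, the second plasminogen activator, measured 1.89, 2.58 and 3.07 CPM in 15Q, 1.69, 1.27 and 0.968 CPM in 84Q, and 1.63, 1.24 and 1.34 CPM in 84Q+IGF-1. F13a1, the fibrin-crosslinking factor XIII A, a product of macrophages, measured 3.01, 3.92 and 5.79 CPM in 15Q, 2.69, 2.55 and 0.797 CPM in 84Q, and 1.63, 1.84 and 2.5 CPM in 84Q+IGF-1. The controls were above the other libraries for both, although the lowest control was close to the highest of the rest. Plau passed the test in 84Q (log2 fold change -0.93, SE 0.25, adjusted p = 0.0829) and missed it in 84Q+IGF-1 (-0.86, SE 0.24, adjusted p = 0.104). In the main edgeR setting F13a1 passed only with the 6 libraries as one group (-1.07, SE 0.28, adjusted p = 0.0473), whereas DESeq2 called F13a1 in both comparisons and Plau and Cd55 in 84Q+IGF-1. Without the filter, edgeR called F13a1 in both comparisons and Plau in 84Q+IGF-1. With only the groups compared or without 84Q replicate 3, it called both genes in 84Q+IGF-1. Plau was also called there without 15Q replicate 1 or 84Q replicate 1. In edgeR the call for Plau in 84Q and that for F13a1 over the 6 libraries were both lost without 15Q replicate 2 or 3, without the 3 choroid plexus libraries, with the replicate block and with Xist as a covariate. That for Plau was also lost without 84Q replicate 2 or 3, with only the groups compared in the fit and at an adjusted p under 0.05.

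Among the tested genes, 12 had all 3 controls above all 84Q libraries and 16 had them above all 84Q+IGF-1 libraries, where 13.5% and 12.9% of all genes tested had this order. The 15Q libraries were above all 6 others for 12 genes, the 11 called and C5ar1, beside 6.34% of all genes. These counts hold the 6 genes that passed the filter only through 15Q, whose order it favoured, and without them 6, 10 and 6 genes remain, so the counts are not to be read against the shares of all genes. Within 15Q, replicate 1 had the lowest CPM of each of the 11 genes called. When the 3 libraries with choroid plexus genes were left out, 4 genes (C3, F2, Fgb and Serpinc1) rather than 9 were called in 84Q, in a fit that keeps a single 15Q library and assumes that it varies like the others.

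The remaining liver genes were near the floor in every group. They are F7, F10, F11, F12, Proc (protein C), Kng1 (kininogen) and Klkb1 (plasma kallikrein), that is most of the contact factors and vitamin K-dependent zymogens. F11 and Kng1 never exceeded 3 counts, and the highest of the others was F7, with 14 counts in 15Q replicate 3. None of the 7 was called without the filter, and no difference between groups was detectable at this depth. Cfb and Cfi, factors B and I of complement, had at most 11 and 10 counts in any library. Of the exonic bases of Cfb 79.5% are shared with the gene model Gm20547, and of those of C2 46.9% with it and Zbtb12.

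IGF-1 treatment of the 84Q mice was not accompanied by a detected difference in any of the genes tested. In 84Q+IGF-1 against 84Q, none of the 29 was called in edgeR, where the share over all genes was 0%, nor in DESeq2, and 1 gene had an unadjusted p under 0.05 in edgeR, against none in DESeq2. Of all 19353 genes tested, 905 had such a p in edgeR. The smallest adjusted p among the 29 was 0.969. C3 differed by 0.04 (SE 0.31) on the log2 scale, Serpinc1 by 0.15 (SE 0.43), Serpind1 by -0.01 (SE 0.30), Plg by -0.21 (SE 0.43) and F2 by -0.71 (SE 0.46). Differences of the size of these errors are left undetermined.

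Summed levels are given by where the genes are mainly made, with no test of a difference between these classes. The 14 liver genes together measured 13.3, 21.1 and 23.2 CPM in 15Q, 5.45, 4.52 and 3.70 CPM in 84Q, and 3.13, 4.33 and 5.65 CPM in 84Q+IGF-1, so the lowest control was above the highest of the other 6. Of these 14, 6 were tested. All 6 were called in both comparisons, but 5 of them, F2, Fgb, Fgg, Serpinc1 and Plg, passed the filter only through 15Q, so that their number supports nothing, and Serpind1 is the remaining one. The 15 genes made in liver and elsewhere summed to 276 to 305 CPM in 15Q, 240 to 304 CPM in 84Q and 232 to 260 CPM in 84Q+IGF-1, so that they too lay below all controls in 84Q+IGF-1 but overlapped them in 84Q. Of their 11 tested genes 2 and 3 were called, where 1.90% and 2.06% of all genes tested were called lower. Cfd is counted in both numbers and passed the filter only through 15Q, so these numbers are a description. The 12 genes of brain cells summed to 174 to 208, 180 to 203 and 167 to 215 CPM, which overlapped, and 1 and 0 of these 12 were called, beside the same 1.90% and 2.06%.

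Marker genes of other tissues were lower together with the liver genes. Of the tested markers, 6 of 8 of hepatocytes, 3 of 5 of intestine, 2 of 7 of epidermis, 3 of 7 of muscle and 1 of 3 of kidney passed the filter on low counts only through 15Q, so the numbers called in these lists are a description and support nothing. Of 18 hepatocyte markers 8 were tested and 5 were called lower in each comparison. Their sum, 142 to 159 CPM in 15Q, 105 to 128 in 84Q and 109 to 143 in 84Q+IGF-1, was dominated by Itih3, which brain also makes. Without Itih3, a step taken after the values were seen, it was 10.5 to 20.2, 1.76 to 3.82 and 0.924 to 1.58 CPM. Alb (albumin) had 53, 162 and 270 counts in 15Q, 0, 1 and 19 in 84Q, and 0, 6 and 0 in 84Q+IGF-1. Apoa1 had 14 to 53 counts in 15Q and 2 to 13 in the others, while Apoa2 was not called in 84Q, with a log2 fold change of 0.64 (SE 0.54, adjusted p = 0.558). Serpina1a, Serpina1b and Serpina1c, which hepatocytes also make in quantity, reached 14, 21 and 17 counts in 84Q replicate 2, against at most 11, 6 and 9 in 15Q, and Mup3, Serpina3k and Fetub had at most 3 counts in any library. Of 12 markers of intestinal epithelium 5 were tested and called lower in each comparison (18.7 to 30.2 CPM in 15Q, 4.31 to 6.10 in the other 6), as were 4 and 5 of 7 tested of epidermis (23.3 to 39.3 against 9.09 to 11.4 CPM) and 6 of 7 of skeletal muscle. The muscle sum, dominated by the neuronal gene Pvalb, was 195 to 200 CPM in 15Q and 203 to 242 in the others, and without Pvalb 12.3 to 18.6 against 2.11 to 3.55 CPM. Of the defining markers of intestine, Fabp2 had 0 counts and Cdh17 0 to 1 in each expanded-repeat library, while Vil1 had 28 to 50. Of those of epidermis, Krt5 had 0 to 1, Krt14 2 to 15 and Krt10 100 to 138 counts, and of those of muscle, Myh4 had 0 to 1, Ckm 0 to 4 and Acta1 14 to 43. Of 10 meningeal genes 3 and 7 were called lower (156 to 242 CPM in 15Q against 75.6 to 136). No gene of blood, microglia, endothelium, astrocytes or cerebellar neurons was called in either comparison, and of kidney 1 of 3 tested was called lower in each, Slc22a6, which is also on the meningeal list and counted there. Blood had its highest sum, 213 CPM, in 15Q replicate 2, against 24.6 to 84.8 CPM in the other 8. The part of these tissues in the levels of the liver genes was not tested.

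**Figure D4:**
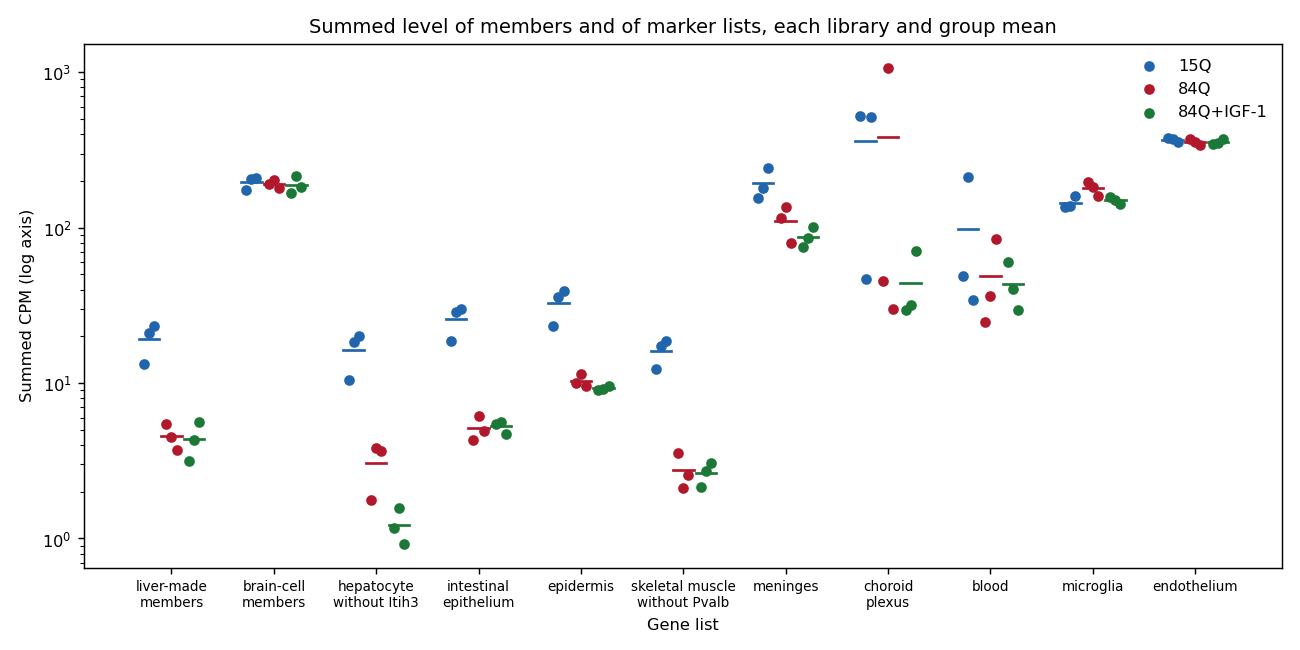
Summed CPM (log axis) of the liver-made and brain-cell genes of the list and of marker genes of other tissues, with 1 point per library and a bar at the group mean. The liver-made genes, the hepatocyte list without Itih3, intestine, epidermis and muscle without Pvalb are each higher in the 3 libraries of 15Q than in the other 6, while the brain-cell genes and endothelium overlap and choroid plexus is high in 3 libraries of 2 groups.

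A wider list of 76 other complement and coagulation genes, of which 52 were tested, gave 2 genes called lower in 84Q (C1s1 and Pzp), 3 in 84Q+IGF-1 (C1rb, C1s1 and Pzp) and these 3 were also called with the 6 libraries as one group. Over all genes tested, 1.90%, 2.06% and 3.16% were called lower in these 3 comparisons. Pzp passed the filter only through 15Q. None of the wider list was called higher, and none in 84Q+IGF-1 against 84Q, where 2 had an unadjusted p under 0.05 in edgeR and in DESeq2. C1s1, the C1s partner of C1r, had 59, 111 and 172 counts in 15Q, 23, 29 and 16 in 84Q, and 25, 42 and 33 in 84Q+IGF-1 (log2 fold changes -1.42, SE 0.24, adjusted p = 0.0121, and -1.07, SE 0.23, adjusted p = 0.0397). Pzp, the liver relative of alpha-2-macroglobulin, had 40, 129 and 221 counts in 15Q, 3, 1 and 7 in 84Q, and 4, 6 and 4 in 84Q+IGF-1 (-4.12, SE 0.53, adjusted p = 0.00196, and -3.99, SE 0.50, adjusted p = 0.00141). The controls were above all other libraries for both, while A2m itself differed little. C1rb, the near copy of C1ra, had a log2 fold change of -1.61 (SE 0.36, adjusted p = 0.0480) in 84Q+IGF-1. The calls for C1s1 and C1rb in 84Q+IGF-1 were lost without 15Q replicate 2 or 3 or 84Q+IGF-1 replicate 1. That for C1rb was also lost with the replicate block. The C1q chains that microglia make were not called, with C1qa at 0.12 (SE 0.17) and -0.08 (SE 0.17) on the log2 scale. The median log2 fold change of the 52 was -0.04 in 84Q and -0.10 in 84Q+IGF-1.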

How the data were processed

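RNA of the cerebellum of 9 mice was sequenced as paired-end reads with a strand-specific kit, 1 library per mouse and 3 per group, with groups and replicate numbers from the sample labels. Per the methods and the submitters' processing notes, reads were trimmed with Trimmomatic 0.36, aligned to GRCm38.p6 with HISAT2 2.2.0 and counted on genes with featureCounts, and the authors deposited these counts without normalization. The annotation and strand setting of the counting are not given in the sources used here, so reads of genes that overlap on opposite strands may be shared.

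Counts were compared with edgeR 4.0.16 under R 4.3.3, using TMM factors, filterByExpr, a quasi-likelihood fit over all 9 libraries, two-sided tests and Benjamini-Hochberg adjustment over 19353 genes. Standard errors were derived from the F statistic. A separate fit joined 84Q with 84Q+IGF-1. CPM used TMM-scaled totals. TPM used the exon union of GENCODE vM21, in which 37681 of the genes had a position. Folds against a group at 0 counts were set against the floor of 3 counts per library (mean over the group), and ratios to 1 to 3 counts have exact 95% intervals. Depth ranged from 17482654 to 58269196 counts. The steps were tested on simulated data.

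The genes, the wider list of 79 symbols (76 found), their assignment to liver or brain and the marker lists were chosen with earlier results of these data known. Values in every library are given for genes called in at least 1 comparison and for uncalled genes among the 6 with the highest mean TPM, and the other genes by counts and ranges. Other pathway genes are named where called, except 1 gene that is counted in the list but not reported here, and of marker lists the 3 defining genes where the list moved. C1qa, Fga, C6, C7, Itih3, Pvalb, Mup3, Serpina3k, Fetub, Serpina1a, Serpina1b, Serpina1c, Apoa2 and Slc22a6 are named outside this rule, after their values were seen. The alternatives were DESeq2 1.42.0, its size factors in edgeR, no filter, an adjusted p under 0.05, no fold threshold, only the groups compared, a block for the replicate number, the level of Xist as covariate and each library left out. Leaving out the 3 libraries with choroid plexus genes was added after the data were seen. Samples labelled as replicates differed by more than sampling noise and each was counted.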

Additional observations from a re-analysis of the deposited data

Results flagged for a closer look

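Of 25 genes of the list examined in the 6 expanded-repeat libraries, C3ar1, the receptor for the C3a fragment, had 1 library far from the rest. In 84Q replicate 1 it measured 4.17 CPM, whereas the other 5 libraries lay between 2.63 and 3.12 CPM, a gap of 0.683 of the whole range. Chance alone gives such a gap in about 1 of 20 groups. The 15Q libraries, at 2.75, 3.22 and 4.12 CPM, spanned nearly the same range.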

How the results depend on the processing

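None of the 11 genes called reversed its sign against 15Q under the alternatives run, and C3, F2, Fgb and Serpinc1 passed the test in every one for each comparison with 15Q, although F2, Fgb and Serpinc1 met the filter on low counts only through 15Q. The 9 list genes called in 84Q became 14 without the filter on low counts and 4 without the 3 choroid plexus libraries, and ranged from 6 to 10 when each library was left out. The 9 in 84Q+IGF-1 became 14 in DESeq2 and 15 without the filter and ranged from 7 to 13, and the 11 over all expanded-repeat libraries ranged from 7 to 13. The wider list gave 6 in 84Q without the filter (2 to 4 with a library left out), 5 in DESeq2 and 10 without the filter in 84Q+IGF-1 (1 to 6), and 8 without a fold threshold, 7 in DESeq2 and 10 without the filter over all expanded-repeat libraries (2 to 6). In 84Q+IGF-1 against 84Q it gave 1 (F5) without the filter, and both lists gave 0 to 0 with each library left out. More genes are tested without the filter. Numbers both rose and fell when a library was left out, and the causes of these shifts were not tested. The replicate numbers did not pair the samples (correlations of deviations from group means of -0.309 to 0.0788), and the replicate block gave 7, 7, 0 and 10 list genes in the 4 comparisons. The sex of the mice is not given, and Xist as a covariate left 7, 8, 0 and 10. Serpind1, Plau, C1ra and F13a1 were the calls most often lost. Of the 9 uncalled genes of the list named with a fold change, A2m and Thbd changed sign. Thbd in 84Q was 0.05 without the choroid plexus libraries and -0.41 to 0.04 with each library left out, and -0.31 to 0.06 in 84Q+IGF-1. A2m in 84Q was 0.0 in DESeq2 and -0.12 to 0.11 with each library left out, and in 84Q+IGF-1 -0.07 with Xist and -0.04 to 0.15. In 84Q+IGF-1 against 84Q, C3 ranged from -0.12 to 0.4, Serpinc1 from -0.07 to 0.59 and Serpind1 from -0.31 to 0.24 (0.04 with Xist). The liver genes F2, Fgb, Fgg, Serpinc1 and Plg rest on few counts in the 6 expanded-repeat libraries.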
